A study of Mus musculus with 18 samples.

Results

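The regions described here were 9404 stretches of the mouse genome that lay far from protein-coding genes and carried both H3K27ac and H3K4me3 in Control embryonic stem cells. Members were chosen by their H3K27ac and H3K4me3 peaks in the 4 Control libraries. A region was a member if it was an autosomal peak of the Control H3K27ac replicate 1 list, shared at least 1 base with a peak of the Control H3K27ac replicate 2 list and with H3K4me3 peaks of both Control libraries, and lay over 5 kb from either end of every RefSeq protein-coding gene. The list it was drawn from held 29478 autosomal peaks, of which 22801 were shared by both Control H3K27ac libraries and 11584 of those were distal by the same distance. Members therefore made up 81.2% of the distal acetylated regions. Only 805 distal acetylated regions met no H3K4me3 peak of either Control library.

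The cells were mouse embryonic stem cells of the C57BL/6 strain, grown with LIF, CHIR99021 (an inhibitor of the kinase GSK3) and PD0325901 (an inhibitor of the kinase MEK), and fixed with formaldehyde. The labels give 3 genotypes: Mettl3 Control, Mettl3 KO1 and Mettl3 KO2. Each genotype had 2 libraries per mark, so 12 peak lists were used, and the 6 input samples were not analysed here. Mettl3 is the catalytic subunit of the enzyme complex that places the m6A mark on RNA. The labels used here do not give the deleted sequence, nor whether KO1 and KO2 are each 1 clone, and peaks at the Mettl3 gene measure neither its transcript nor its protein, so the knockout itself was not checked. Nor do the labels say that replicates came from separate cultures, so every p-value below measures only the spread between these libraries.

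H3K27ac, acetylation of a lysine in the tail of histone H3, marks active promoters and active enhancers. H3K4me3, trimethylation of another lysine of the same tail, is placed by SET1 and MLL complexes and is strongest where transcription starts, above all at CpG-rich promoters; weaker H3K4me3 is known at some strongly active enhancers. A region far from coding genes that carries both can thus be an unlisted or alternative start, the start of a noncoding RNA, or an enhancer, and peak lists alone do not separate these.

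Few members held a start that RefSeq lists. A protein-coding start lay in 54 members. These starts are over 5 kb inside the outermost ends of their own gene, since a RefSeq gene reaches as far as its longest predicted transcript. A lncRNA start lay in another 94, and no listed start in the remaining 9256, which was 98.4% of the members. The promoters below, each 250 bases before to 50 after a start, show the range of sequence among members with a start. Capitals mark every CG dinucleotide, and the sequences are RefSeq's for GRCm38.p6, the assembly that mm10 names.
D230017M19Rik: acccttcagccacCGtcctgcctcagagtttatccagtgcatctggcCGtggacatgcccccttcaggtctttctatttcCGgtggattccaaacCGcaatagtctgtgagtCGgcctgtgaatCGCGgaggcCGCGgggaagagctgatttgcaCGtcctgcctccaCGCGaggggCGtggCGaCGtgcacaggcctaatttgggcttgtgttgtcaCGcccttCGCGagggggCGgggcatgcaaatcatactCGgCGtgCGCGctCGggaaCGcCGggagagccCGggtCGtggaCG
Chaserr: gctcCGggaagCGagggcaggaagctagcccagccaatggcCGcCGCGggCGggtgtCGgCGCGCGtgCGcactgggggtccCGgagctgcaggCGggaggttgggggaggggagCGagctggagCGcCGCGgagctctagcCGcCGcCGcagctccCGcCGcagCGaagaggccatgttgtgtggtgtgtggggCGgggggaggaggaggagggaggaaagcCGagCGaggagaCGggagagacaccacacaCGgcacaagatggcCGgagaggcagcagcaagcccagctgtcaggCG
Cops3: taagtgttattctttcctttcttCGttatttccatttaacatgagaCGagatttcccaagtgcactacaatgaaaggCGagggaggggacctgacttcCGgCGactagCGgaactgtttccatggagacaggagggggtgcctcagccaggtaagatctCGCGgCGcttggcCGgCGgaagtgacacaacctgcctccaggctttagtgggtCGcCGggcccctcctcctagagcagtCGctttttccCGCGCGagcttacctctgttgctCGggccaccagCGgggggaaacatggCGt
Lncenc1: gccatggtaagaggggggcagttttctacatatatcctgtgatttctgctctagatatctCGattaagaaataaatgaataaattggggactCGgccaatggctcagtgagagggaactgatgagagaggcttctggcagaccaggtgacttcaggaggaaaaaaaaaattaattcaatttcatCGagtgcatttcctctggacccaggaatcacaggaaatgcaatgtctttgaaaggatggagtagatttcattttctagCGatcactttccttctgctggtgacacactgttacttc
Platr7: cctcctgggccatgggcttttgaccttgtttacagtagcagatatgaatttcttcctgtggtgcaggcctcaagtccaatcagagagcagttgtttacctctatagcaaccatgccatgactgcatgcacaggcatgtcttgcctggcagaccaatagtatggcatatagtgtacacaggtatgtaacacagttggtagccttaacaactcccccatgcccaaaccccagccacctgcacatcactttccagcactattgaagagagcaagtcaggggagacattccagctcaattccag
D230017M19Rik (chr1:72243743-72244042, plus strand) is a lncRNA gene beside Pecr with 29 CG dinucleotides in these 300 bases, and Chaserr (chr7:73558346-73558645, minus strand), a lncRNA known for restraining its neighbour Chd2, had 30. The Cops3 start (chr11:59839718-59840017, minus strand), of a COP9 signalosome subunit gene, had 20. Lncenc1 (chr13:97434720-97435019, plus strand) and Platr7 (chr10:84553289-84553588, minus strand), lncRNAs known from embryonic stem cells, had 4 and 0. The 60 listed protein-coding promoters in members had a median of 20.5 CG dinucleotides, against 14 over all 20085 autosomal protein-coding promoters. The 107 lncRNA promoters in members had a median of 7, against 4 over all 11311.

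Motif searches over both strands gave descriptions only, each set beside all autosomal promoters of the same class. The octamer ATGCAAAT, a sequence that Oct4 binds, was in 0% of the protein-coding promoters in members, against 1.67% of all. It was in 2.80% of the lncRNA promoters in members, D230017M19Rik among them, against 1.87% of all. GGGCGG, a sequence that Sp1 binds, was in 51.7% of the protein-coding promoters in members against 47.0%, and in 30.8% of the lncRNA promoters against 16.3%. TATAAA was in 6.67% against 12.7% and in 5.61% against 15.2%, and CCAAT in 20% against 38.1% and in 34.6% against 35.8%.

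Another 8 members overlapped microRNA genes. The let-7 and miR-302 families among them stand on opposite sides of stem cell biology, since let-7 accompanies differentiation and miR-302 belongs to pluripotent cells. Their mature sequences are shown, with one from Mir135b, for the values given further on. Capitals mark the seed, bases 2 to 8, which chooses the targets.
let-7g-5p: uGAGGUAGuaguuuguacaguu
let-7i-5p: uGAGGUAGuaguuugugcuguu
miR-302b-3p: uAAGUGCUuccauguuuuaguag
miR-302c-3p: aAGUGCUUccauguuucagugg
miR-135b-3p: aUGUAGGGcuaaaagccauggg
The let-7g and let-7i sequences, encoded on chr9 and chr10, share the seed GAGGUAG. The miR-302b and miR-302c sequences come from 1 cluster inside Larp7 on chr3, and their seeds as listed are AAGUGCU and AGUGCUU.

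**Figure D1:**
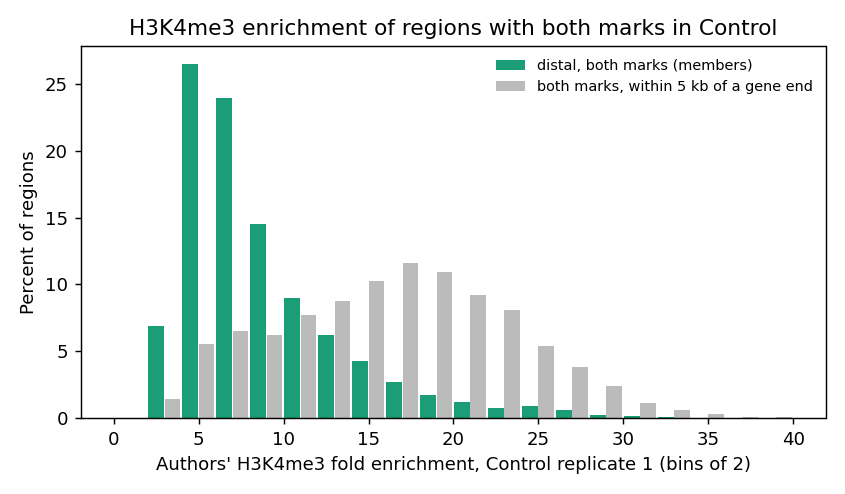
Percent of regions in each bin of the authors' H3K4me3 fold enrichment (bins of 2) in Control replicate 1, for the 9404 members and for 10754 regions with both marks within 5 kb of a protein-coding gene end. The members pile up at low enrichment, with a median of 7.36 against 16.7 near genes, and have a tail into the range of the gene-proximal regions.

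Members came in groups. Their median width was 482 bp (lowest 150, highest 7861), against 424 bp in regions with both marks near genes and 229 bp in distal regions without H3K4me3. The members' median distance to a protein-coding gene end was 24195 bp, and 4795 of them (51.0%) lay inside a protein-coding gene. Another member lay within 5 kb of 78.9% of them. Joined at that distance they formed 4314 clusters, of which 1980 were single members. The biggest cluster had 34 members over 56.7 kb inside Macf1, which encodes a protein that links microtubules to actin (chr4:123610975-123667681). The next had 29 over 44.4 kb inside Esrrb, the orphan nuclear receptor of the naive pluripotency network (chr12:86464252-86508670). Cd9, a tetraspanin gene, stood nearest to a cluster of 19, and Etv5, an ETS factor gene of the FGF pathway, held one of 18. Because 72.6% of the members' 2 kb windows share bases with the window of another member, counts of members below are not counts of independent sites.

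The H3K4me3 of the members was weak. The authors' fold enrichment, the height of a peak over the local background within 1 library, had a median of 7.36 in Control replicate 1 and 7.31 in replicate 2. Regions with both marks near genes had 16.7 and 16.6. For H3K27ac the gap was small: 5.87 and 6.49 in members against 6.63 and 7.501 near genes, and 4.47 and 4.93 in distal regions without H3K4me3. These values helped choose the members and carry no test. Members with a listed protein-coding start had a median H3K4me3 enrichment of 16.1 in replicate 1, those with a lncRNA start 12.5 and those without a listed start 7.32, so the members with a coding start sat at the level of the regions near genes.

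The labelled cell type was checked against marker genes. All 8 embryonic stem cell marker genes (Pou5f1, Sox2, Nanog, Klf4, Esrrb, Zfp42, Tfcp2l1 and Dppa5a) had peaks in all 12 lists. Of 8 fibroblast feeder markers none had H3K27ac, except Twist1 in KO2 replicate 2, and 2 to 4 had H3K4me3. Lists differed in size: H3K27ac lists held 29973 and 32957 peaks for Control (14.4 and 14.6 Mb covered), 40210 and 39048 for KO1 (19.6 and 17.5 Mb) and 65398 and 61383 for KO2 (37.0 and 35.5 Mb). H3K4me3 lists held 66483 to 83644 peaks, the most in Control. Read depth is unknown, so whether longer lists reflect more signal or more reads was not tested.

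Following the members into the knockouts, most kept both marks. An H3K27ac peak met 92.1% and 87.7% of the members in the 2 KO1 libraries (mean 89.9% ± 3.11, SD, n = 2). In the KO2 libraries it met 96.5% and 96.1% (96.3% ± 0.286). H3K4me3 met 92.2% and 91.5% in KO1 (91.9% ± 0.541) and 94.1% and 89.9% in KO2 (92.0% ± 2.92). Every member has both marks in Control by the rule, so these shares can only be below 100%, and no test against Control was made. Between the knockouts, the KO2 H3K27ac values lay above both KO1 values (exact two-sided permutation p = 0.3333, the smallest that 2 against 2 libraries allow), and the H3K4me3 values overlapped (p = 1). With equal numbers of peaks per list, which left 8209 members, H3K27ac met 85.6% ± 2.78 in KO1 and 87.3% ± 0.0172 in KO2. That gap was smaller than the KO1 SD.

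**Figure D2:**
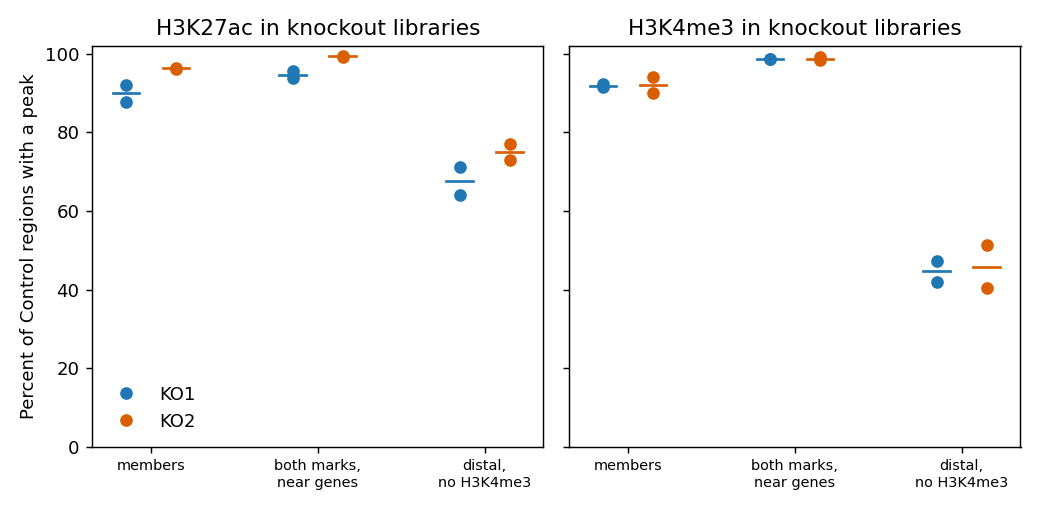
Percent of Control regions met by a peak in each knockout library (points; bars are means of 2 libraries), for the members, regions with both marks near genes and distal regions without H3K4me3. Members sit just below the regions near genes and far above the distal regions without H3K4me3 for both marks.

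In every knockout library the share of members met lay between that of regions near genes and that of distal regions without H3K4me3. The sets differ by the rule, so this order is a description. Near genes, H3K27ac met 94.7% ± 1.17 in KO1 and 99.4% ± 0.132 in KO2, and H3K4me3 98.6% ± 0.0263 and 98.7% ± 0.559 (SD, n = 2). Distal regions without H3K4me3 had H3K27ac at 67.6% ± 5.09 and 74.97% ± 2.90. In those, H3K4me3, absent in Control by choice, met 44.7% ± 3.78 in KO1 and 45.8% ± 7.73 in KO2. The gap between members and regions near genes in H3K27ac was -4.79 points in KO1 and -3.05 in KO2 (exact two-sided permutation p = 0.3333), and the gap to distal regions without H3K4me3 was 22.4 and 21.3 points (p = 0.667).

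The share met went with the enrichment in Control, again as a description, since Control chose the members. Members were split into 4 equal groups by H3K27ac enrichment in Control replicate 1. In the lowest group H3K27ac met 79.3% in KO1 and 93.0% in KO2, and in the top group 99.1% and 99.4%. Split likewise by H3K4me3 enrichment, the lowest group was met by H3K4me3 at 81.0% and 81.1% and the top group at 99.1% in both lines. Members inside genes kept H3K27ac in KO1 at 90.4% and 85.7% by library, and those between genes at 94.0% and 89.9%. Of the 54 members with a protein-coding start, H3K4me3 met 100% in each of the 4 knockout libraries.

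Counted over all 8 knockout libraries, 6926 members (73.6%) had both marks in each one, against 82% of all 20158 Control regions with both marks at any distance. Per line, 7395 (78.6%) kept both marks in both KO1 libraries and 8189 (87.1%) in both KO2 libraries. H3K27ac was missing from both KO1 libraries at 413 members (4.39%), where the share over all 22801 shared Control H3K27ac regions was 4.27%. It was missing from both KO2 libraries at 172 (1.83%), against 2.14%. These shares are near the background. H3K4me3 was missing from both KO1 libraries at 375 members (3.99%) and from both KO2 libraries at 398 (4.23%), against 2.19% and 2.29% of the Control regions with both marks. All backgrounds in this paragraph include the members, so 375 of 441 and 398 of 462 such regions were members. H3K27ac was in both KO2 libraries and neither KO1 library at 254 members (2.70%), against 2.46% of the shared Control H3K27ac regions, and the reverse held at 53 (0.564%), against 0.548%. For H3K4me3 these counts were 137 (1.46%, against 0.848% of the Control regions with both marks) and 133 (1.41%, against 0.838%).

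How often a region is met again without having been chosen for it was read from the other Control replicate. Regions chosen with Control replicate 1 alone (12845) met an H3K27ac peak in Control replicate 2 at 79.3%, in the KO1 libraries at 84.7% and 79.2%, and in the KO2 libraries at 92.7% and 91.7%. An H3K4me3 peak met 88.3% of them in Control replicate 2, 86.1% and 84.8% in KO1, then 88.9% and 83.3% in KO2. Thus KO1 lay on both sides of the Control level for H3K27ac and below it for H3K4me3, while KO2 lay above it for H3K27ac and on both sides for H3K4me3. Regions chosen with replicate 2 alone (13341) also put KO2 highest for H3K27ac, with 77.3% in Control, 82.2% and 77.2% in KO1, then 91.6% and 91.0% in KO2. For H3K4me3 both knockout lines then lay below the 89.6% of Control, with 85.5% and 84.3% in KO1 and 88.8% and 82.7% in KO2. With every list of a mark trimmed to an equal number of peaks, H3K27ac averaged 78.8% in Control, 74.8% in KO1 and 78.9% in KO2 over both choices, so KO2 then lay within the range of the Control values (76.9% and 80.7%). H3K4me3 averaged 87.1% in Control, 86.8% in KO1 and 87.6% in KO2 in that setting. Both knockout means then lay within the range of the Control H3K4me3 values (85.6% and 88.5%).

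The same rule was then applied within each genotype. It chose 10897 regions in KO1 and 16529 in KO2, against 9404 in Control, and these made up 75.8%, 65.4% and 81.2% of the distal H3K27ac regions of each genotype. Of the Control members, 79.7% overlapped a region so chosen in KO1 and 86.5% one chosen in KO2. In the other direction, 65.2% of the KO1 regions and 39.3% of the KO2 regions overlapped a Control member. With equal numbers of peaks per list the rule chose 8209, 8661 and 9526 regions, which were 75.2%, 84.0% and 91.7% of the distal H3K27ac regions, so the order of the genotypes in that share turned round.

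Around many members H3K27ac peaks covered more of the surrounding sequence in KO2 than in KO1. Breadth was measured as the percent of a 2 kb window, centred on the member, that H3K27ac peaks covered. Separate and neighbouring peaks in the window count too, so broader and narrower here mean more or less of the window covered. The width of single peaks was not compared. The mean over members was 48.0% ± 0.704 in Control (SD over libraries, n = 2), 50.1% ± 3.94 in KO1 and 67.8% ± 0.803 in KO2. In limma over all 28657 windows that could be tested, 9252 of them members, H3K27ac was broader in KO2 than in KO1 at 3136 members (adjusted p under 0.05), which is 33.9%, against 38.3% of all windows. It was narrower at 85 members, 0.919%, against 0.764% of all windows. The members' median difference was 16.2 points, below the 19.1 of all windows and the 20.7 of regions near genes and above the 9.85 of distal regions without H3K4me3.

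These counts rest on few libraries. With either KO2 replicate left out, no member was called in limma, and without KO1 replicate 2 there were 406 broader and 0 narrower members, without KO1 replicate 1 1777 and 6. The medians stayed between 13.3 and 19 points in those fits. Equal numbers of peaks per list left 1253 broader and 115 narrower members with a median of 13.6 points, and quantile normalization, which forces the libraries to 1 distribution, left 106 and 60 with a median of -3.61 for members and -1.54 for all windows. Of the 26 called members named below, 10 lost their call after quantile normalization, 9 with equal lists and 20 of 25 with the peak itself as window.

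**Figure D3:**
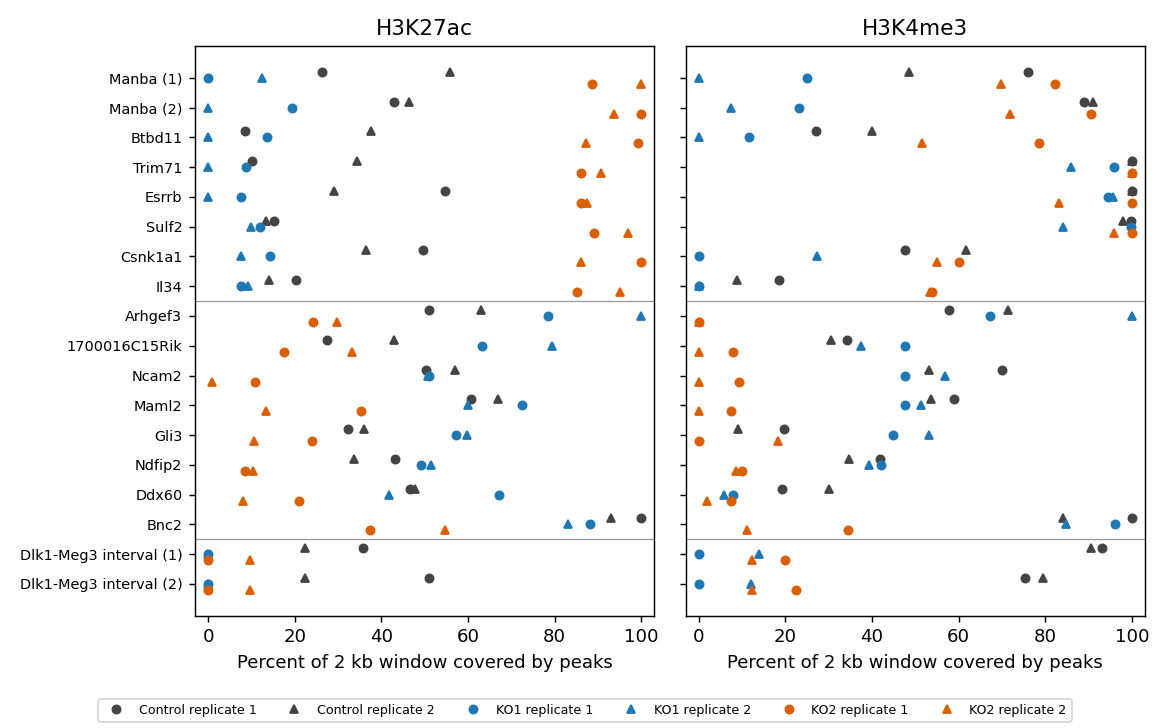
Percent of the 2 kb window covered by peaks of each mark in each library for the 8 members with the greatest positive and the 8 with the greatest negative KO2 minus KO1 difference in H3K27ac, and for both members between Dlk1 and Meg3. In the upper block KO2 lies at 85.2% or more for H3K27ac and KO1 at 19.3% or less, and H3K4me3 is high in all genotypes at Trim71, Esrrb and Sulf2.

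The greatest positive differences were at a pair of members inside Manba, the gene of the lysosomal enzyme beta-mannosidase. At the first (chr3:135563105-135563632) H3K27ac covered 26.4% and 56.0% of the window in Control, 0% and 12.3% in KO1, then 88.7% and 100% in KO2. That is a difference of 88.2 points (SE 8.02, limma adjusted p = 0.0117). H3K4me3 there was 25% and 0% in KO1 and 82.2% and 69.8% in KO2, so both marks were low in KO1 and high in KO2 without overlap. The second Manba member differed by 87.2 points, and a member inside Btbd11, a BTB domain gene, by 86.4, with the same low KO1 values in both marks. Control H3K27ac was 43% and 46.35% at the former and 8.5% and 37.5% at the latter.

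At 3 of these 8 members H3K4me3 covered most of the window in every library. Inside Trim71, the gene of an RNA-binding ubiquitin ligase targeted by let-7 (chr9:114531408-114531611), H3K27ac was 10.2% and 34.3% in Control. It was 8.85% and 0% in KO1 and 86.0% and 90.8% in KO2. There H3K4me3 covered 96.0% and 85.9% in KO1 and 100% in both KO2 libraries. Inside Sulf2, a heparan sulfate endosulfatase gene (chr2:166143306-166143607), H3K27ac was low in Control (15.1% and 13.25%) as well as in KO1 (12% and 9.90%). In KO2 it was 89.2% and 97.0%. All 6 H3K4me3 libraries covered the Sulf2 window to at least 84.0%. The member inside Esrrb (chr12:86494179-86494755) had H3K27ac at 54.65% and 29.1% in Control, 7.65% and 0% in KO1, then 86.0% and 87.6% in KO2. H3K4me3 there was at least 83.2% everywhere. The remaining members of the 8 were near Csnk1a1, a casein kinase gene of the Wnt pathway (82.1 points), and inside Il34, a ligand gene of the CSF1 receptor (81.8 points). In Control H3K27ac was 49.7% and 36.4% near Csnk1a1 and 20.4% and 14.1% inside Il34.

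Among the 8 members with the greatest negative difference, H3K4me3 coverage was also at least 30 points lower in KO2 at 7, without being called. Inside Arhgef3, a guanine nucleotide exchange factor gene (chr14:27350304-27351322), H3K27ac covered 51.0% and 63.0% in Control, 78.5% and 100% in KO1, then 24.2% and 29.9% in KO2. The difference was -62.2 points (SE 9.09, limma adjusted p = 0.0123), and H3K4me3 was at 0% in both KO2 libraries against 67.2% and 100% in KO1. Inside Ncam2, a neural adhesion gene (chr16:81481391-81482396), H3K27ac was 51.0% and 50.9% in KO1 and 10.9% and 0.800% in KO2. Inside Bnc2, a zinc finger gene (chr4:84660141-84662298), it was 88.1% and 83.2% in KO1 and 37.4% and 54.6% in KO2. Control at Arhgef3 lay between the lines, whereas at Ncam2 and Bnc2 it was near or above KO1. The others stood at 1700016C15Rik (-46.1 points), inside Maml2, a Notch coactivator gene (-42.0), near Gli3, a Hedgehog transcription factor gene (-41.2), near Ndfip2, an adaptor gene of ubiquitin ligases (-41.0), and inside Ddx60, an antiviral helicase gene (-40.0). The Ddx60 member was the exception, with H3K4me3 at 7.85% or less in all 4 knockout libraries.

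For H3K4me3 itself, limma called 0 of the 9043 members tested, and 0% of all 27174 windows. Without adjustment 1986 members (22.0%, against 16.8% of all windows) had p under 0.05, 1342 of them broader and 644 narrower in KO2, and the smallest adjusted p was 0.144. The members' median difference was 2.70 points, against 0.9 over all windows and -0.300 near genes, and it was -0.350 without KO2 replicate 1 and 6.15 without KO2 replicate 2, so its sign rested on 1 library. Mean H3K4me3 breadth over members was 57.2% ± 1.13 in KO1 and 60.4% ± 5.602 in KO2 (SD, n = 2; exact two-sided permutation p = 1).

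Differences in the marks had the same sign at 6169 of 8971 members (68.8%) and opposite signs at 2797. Across the 8971 members tested for both, the KO2 minus KO1 differences of H3K27ac and H3K4me3 had Pearson's r = 0.579 and a Spearman correlation of 0.549, given as a description since members share libraries and windows overlap. Of the 3041 broader H3K27ac members with an H3K4me3 value, 2452 had a positive H3K4me3 difference (median 11.8 points). Of the 83 narrower ones, 2 did (median -28.3 points). Of the 5919 that were not called, 2860 did (median -0.450 points). At the broader members mean H3K4me3 coverage was 59.3% and 57.9% in KO1 and 76.1% and 67.4% in KO2. At the narrower members it was 47.7% and 47.2% in KO1 and 22.0% and 14.9% in KO2.

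**Figure D4:**
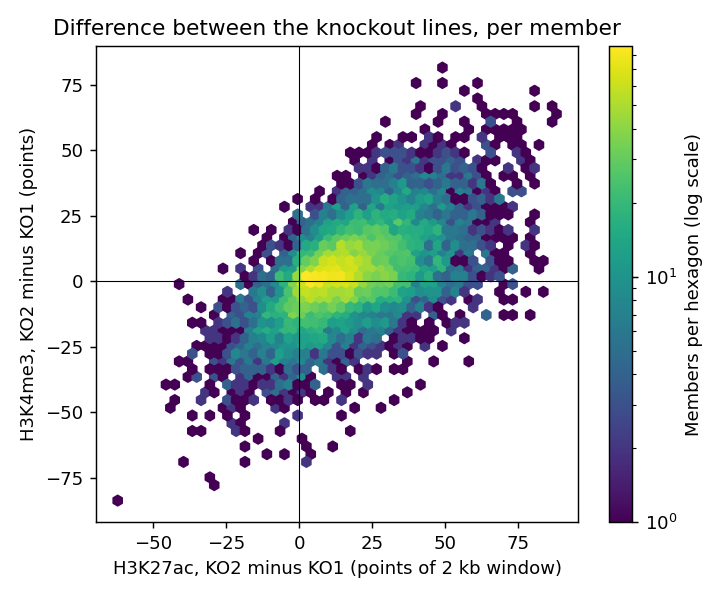
KO2 minus KO1 difference in window coverage for H3K27ac (horizontal, points) and H3K4me3 (vertical, points), as hexagons coloured by the number of members on a log scale, for 8971 members. The cloud slopes upward (r = 0.579) and lies mostly right of zero for H3K27ac.

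A small group of members had neither mark in the knockouts. No peak of either mark met 30 members in any of the 8 knockout libraries, 0.319% against 0.154% of all Control regions with both marks. That background is 31 regions, these 30 among them. The widest was inside Snapc3, a gene of the snRNA-activating complex, nearest to Psip1 (chr4:83439389-83440036). Its window was covered at 63.3% and 58.5% by H3K27ac and at 82.2% and 77.5% by H3K4me3 in Control, while H3K27ac was at 0% in 3 of 4 knockout libraries, the exception being KO2 replicate 2 at 12.6% from a neighbouring peak. H3K4me3 covered 12% and 22.6% of that window in KO1 and 0% in both KO2 libraries. A further member in Snapc3 was lost too. Others among the widest 8 were inside Sugct and Mtus1 and near Mpp7, Gnai1, Tacr1 and Slc44a1. Neighbouring H3K27ac peaks still covered part of the Sugct, Gnai1, Tacr1 and Slc44a1 windows in some or all knockout libraries. Near Gnai1 they covered 25.15% and 29.7% in KO1 and 23.55% and 34.3% in KO2, against 54.6% and 60.25% H3K27ac coverage in Control. At Mtus1 (chr8:41124828-41125262) and near Mpp7 both marks covered 0% of the window in all 8 knockout libraries.

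The interval between Dlk1 and Meg3, 2 oppositely imprinted genes on chr12, held a pair of members 10.8 and 11.4 kb from Meg3, chosen here after their values were seen. The first (chr12:109529293-109529594) had H3K4me3 at 93.2% and 90.7% of the window in Control, 0% and 14.0% in KO1, then 19.9% and 12.3% in KO2. H3K27ac there was 35.6% and 22.4% in Control, 0% in both KO1 libraries, then 0% and 9.75% in KO2. The second (chr12:109529942-109530240) had H3K4me3 at 75.2% and 79.5%, then 0% and 12%, then 22.5% and 12.3%. Both knockout lines were below both Control libraries in both marks. Control peaks chose the members, so this order is a description and was not tested.

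Few members kept one mark and lost the other in every knockout library. H3K27ac met all 4 and H3K4me3 none of the knockout libraries at 14 members (0.149%, against 0.0943% of all Control regions with both marks), and the reverse held at 1 (0.0106%, against 0.0298%). These backgrounds, 19 and 6 regions, include the members. Among the former the strongest lay near Mctp2, a gene of a membrane protein with C2 domains (chr7:72326320-72326721). H3K27ac there was 46.9% and 51.9% in Control, 33.8% and 30.3% in KO1, then 21.7% and 16.2% in KO2. H3K4me3 peaks that missed the member still covered 21.65% and 6.2% of its window in KO1 and 14.65% and 0% in KO2. The others of the strongest 8 lay near Cylc2, Cobl, Mkrn1, Grm7 and Gmfg-ps (inside Ppp1r9a) and inside Vmp1 and Gap43. The single reverse case lay nearest to Olfr129, an olfactory receptor gene (chr17:38005377-38005579), where H3K4me3 covered 100% in both Control libraries, 100% and 84.0% in KO1, then 53.1% and 63.7% in KO2. H3K27ac peaks covered part of that window in 3 of the 4 knockout libraries but not the member itself.

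Members near naive pluripotency genes were described as a list. Each member was assigned to its nearest protein-coding gene within 100 kb, which need not be the gene it acts on. By that, 209 members fell to 27 of the 38 genes listed under naive pluripotency. The list names used here are loose labels, and not every listed gene is particular to that state. Of the 202 tested, 93 (46.0%) had broader and 0 narrower H3K27ac in KO2 than in KO1, beside 38.3% and 0.764% over all windows, and their median difference was 19.04 points beside 19.1. Over all members tested 33.9% were broader and 0.919% narrower. The cluster inside Esrrb alone gave 22 of the 93 calls, from 28 tested members, many with overlapping windows. Some H3K4me3 peak met 97.1% and 94.7% of them in KO1 and 100% and 97.1% in KO2.

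**Figure D5:**
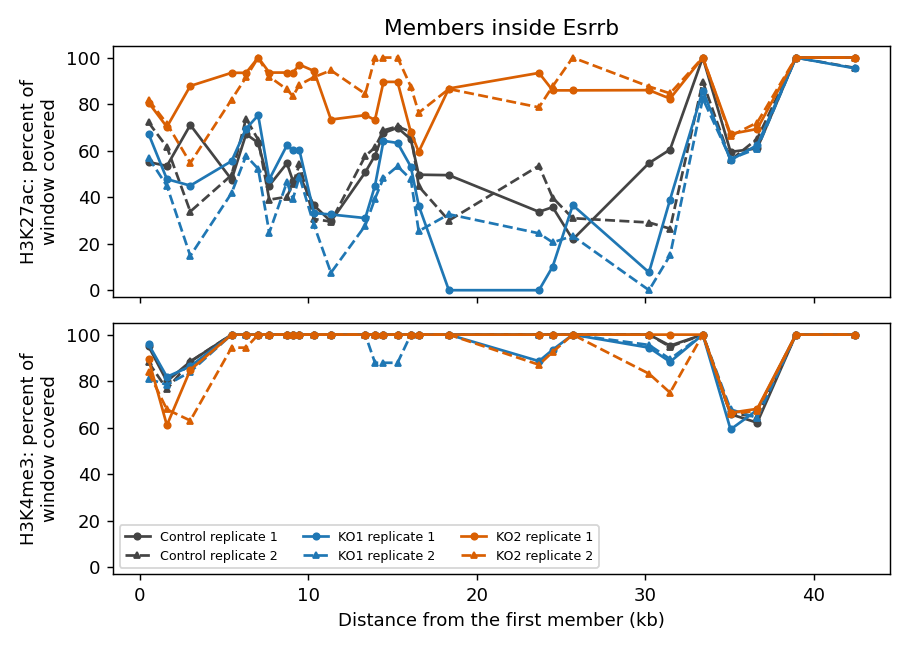
Percent of the 2 kb window covered by H3K27ac (top) and H3K4me3 (bottom) peaks at the 29 members inside Esrrb, by distance from the first member, for the 6 libraries of each mark (circles and solid lines replicate 1, triangles and dashed lines replicate 2). KO2 H3K27ac lies above KO1 over most of the cluster while H3K4me3 covers the whole window in all 6 libraries at 15 members and under 90% of it in all 6 at 4.

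At Esrrb, H3K27ac coverage was higher in KO2 than in KO1. Over its 29 members mean H3K27ac coverage was 57.1% and 54.5% in Control, 49.7% and 42.1% in KO1, then 85.6% and 87.2% in KO2. The median difference was 38.7 points, and 22 of 28 tested members were called. Mean H3K4me3 coverage was 92.2% to 96.1% in all 6 libraries. At 15 of the 29 members H3K4me3 covered the whole window in all 6 libraries, so the measure could show no further rise there.

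Clusters near other genes of the naive list varied. Zfp281, a zinc finger gene (15 members), had 9 called members and a median of 29.8 points, and Klf5, a Krüppel-like factor gene (15), had 10 and 24.9 points. Tet2, a DNA demethylation enzyme gene (16 members), had 10 called and a median of 19.8 points. Tbx3, a T-box factor gene (11 members), had 7 of 10 tested called (24.9 points), and Nanog, the homeobox gene (6), had 4 (35.6 points). Coverage at Nanog was 54.9% and 39.8% in KO1 and 82.6% and 80.7% in KO2, without overlap. Fewer were called inside Etv5 (8 of 21, 16.2 points), near Klf4 (4 of 10, 9.15 points), near Tet1, another demethylation enzyme gene (3 of 11, 16.6 points), near Prdm14 (3 of 9, 16.6 points) and inside Tfcp2l1 (1 of 7, 10.4 points). At Jarid2, a Polycomb cofactor gene, 1 of 17 was called (3.75 points).

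Of the 27 genes of the naive list with members, 7 had none called. Klf2, Mycn, Otx2 and Socs3, a feedback inhibitor gene of LIF signalling, had positive median differences of 13.8, 8.72, 18.4 and 20.4 points. Near Zfp42, which encodes Rex1 (5 members on chr8), mean H3K27ac coverage was 45.3% and 55.8% in Control, 28.5% and 37.8% in KO1, then 46.0% and 37.8% in KO2. Near Lefty1 and Lefty2, Nodal antagonist genes (3 members each), median differences were -9.35 and -0.650 points. Mean H3K4me3 coverage near Lefty2 was 96.2% and 91.7% in Control, 91.2% and 81.3% in KO1, then 61.1% and 50.5% in KO2. The only member at Lin28a, the gene of an RNA-binding protein that blocks let-7 maturation (chr4:134011279-134011565), had H3K27ac at 29.5% and 24.9% in Control, 23.9% and 21.6% in KO1, then 97.6% and 92.5% in KO2 (72.3 points, called in limma). KO2 was apart from the other 4 libraries at that site. Near Pou5f1, which encodes Oct4, 2 of 3 members were called, and near Sox2 1 of 3.

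Of 24 genes listed under lineage 6 had members, 27 in all, with a median of 14.4 points. Of these members 9 (33.3%) were broader and 0 narrower in KO2 than in KO1. The shares were 38.3% and 0.764% over all windows, and 33.9% and 0.919% over all members tested. Near Eomes, a mesendoderm and trophoblast factor gene, all 3 members were called, with mean H3K27ac coverage at 65.1% and 57.0% in KO1 and 85.7% and 85.3% in KO2. Near Tfap2c, a trophoblast and germ cell factor gene, 4 of 6 were called, and near Foxd3 0 of 7. Inside Wnt3a, a Wnt ligand gene, neither of 2 members was called, and mean H3K4me3 coverage was 54.8% and 54.1% in Control, 0% and 20.9% in KO1, then 0% in both KO2 libraries.

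Members at noncoding genes behaved in different ways. At Mir135b inside Lemd1 (chr1:132197916-132199126) H3K27ac covered 75.8% and 93.3% in Control, 52.5% and 31.9% in KO1, then 85.4% and 82.6% in KO2, a difference of 41.8 points (limma adjusted p = 0.0202). At let-7g inside Wdr82 (chr9:106178715-106179583) it was 51.4% and 50.4% in KO1 and 77.2% and 76.7% in KO2 (26.1 points, limma adjusted p = 0.0248, and 1.92 points after quantile normalization). At let-7i (chr10:122985155-122985810), whose seed is that of let-7g, it was 63.1% and 55.9% in KO1 and 73.5% and 69.4% in KO2 and was not called (11.9 points, limma adjusted p = 0.171). The difference between these let-7 members was not tested. At the miR-302 cluster (chr3:127545169-127545562) the lines overlapped, with 32.1% and 52.0% in KO1 and 51.1% and 38.0% in KO2 (2.43 points, limma adjusted p = 0.843). H3K4me3 there was 69.2% and 63.6% in KO1 and 52.0% and 32.8% in KO2, not called. Mir1192 inside Klf9 (54.5 points) and Mir7003 inside Mybl2 (51.0 points) were called, and Mir760 (1.95 points) and Mir1893 (7.97 points) were not.

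Of the lncRNA starts, Platr7 without a CG dinucleotide and Chaserr with 30 both had broader H3K27ac in KO2. Platr7 had 44.4% and 62.6% in KO1 and 83.2% and 86.9% in KO2 (31.6 points, limma adjusted p = 0.0300). Chaserr had 62.7% and 48.2% in KO1 and 83.8% and 84.6% in KO2 (28.7 points, limma adjusted p = 0.0287), with H3K4me3 between 84.2% and 86.2% in all 6 libraries. Lncenc1 and D230017M19Rik were not called (6.22 and 19.4 points). Neat1, a lncRNA that builds paraspeckles, was covered at 100% by both marks in all 12 libraries. The members at the starts of Cops3 (39.5 points) and of Phip, a bromodomain gene (15.6 points, limma adjusted p = 0.0492), were called. The Phip call was lost in limma with the replicate block (adjusted p = 0.0634) and with all 6 libraries (0.151), and the difference turned to -4.41 points after quantile normalization.

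The 8 members with the highest H3K27ac enrichment in Control replicate 1 lay near Ezr (22.7-fold), Rybp, Pum2, Loxl1, Dpp6, Cd9 and Tmem131 and inside Epc1. Full H3K27ac coverage in all 6 libraries was seen near Rybp, a Polycomb protein gene, near Loxl1, a lysyl oxidase gene that had the widest member (7861 bp), and near Cd9. These and the member near Tmem131 had 100% in all 4 knockout libraries and could not be tested. Of the 4 tested, the member near Ezr, the gene of the membrane linker ezrin (chr17:6826733-6827830), was called, with 65.1% and 49.6% in KO1 and 80.8% and 81.3% in KO2 (23.7 points, limma adjusted p = 0.0491, and 0.0875 points after quantile normalization).

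By chromosome, KO1 kept fewest members on chromosomes 4 and 8. H3K27ac met 83.5% of the 639 members of chromosome 4 and 85.6% of the 610 of chromosome 8 in KO1 (means of 2 libraries), and H3K4me3 86.4% and 86.7%. In KO2 the lowest values were on chromosome 13, with 92.4% for H3K27ac and 86.2% for H3K4me3. Whether copy number differs between the lines was not tested.

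The few regions closest to the distance limit are given here, and the full sets do not repeat their difference in KO2. Just inside it lay regions at 5001 bp from Hsp90b1, 5003 bp from Gm9631 and 5008 bp from Zfp934, and just outside it regions at 4997 bp from Fbxo22 and 4994 bp from Tmprss12. H3K27ac enrichment in Control replicate 1 was 6.46, 3.18 and 9.53 inside and 3.43 and 7.44 outside. In the KO2 libraries H3K27ac covered 16.75% to 52.85% of the window at those inside and 74.95% to 83.6% at those outside. In Control that coverage overlapped, at 18.05% to 56.3% inside and 31.75% to 52.4% outside. So few regions carry no test. Over the full sets mean H3K27ac coverage in KO2 was 67.8% in members and 66.4% in regions with both marks near genes.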

How the data were processed

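H3K27ac and H3K4me3 were measured by ChIP-seq with spike-in chromatin, in 3 genotypes with 2 libraries each. Per the submitters' processing notes, reads were handled with CASAVA, Trimmomatic 0.38 and Bowtie 1.2.2 on mm10, and peaks called with MACS2. The peak caller's version, its control library and any use of the spike-in are not given in the sources used here. Each library has its own deposited peak list, with positions, a fold enrichment (a ratio over local background), a −log10 p and a −log10 q. The deposited lists have no header line, so columns were read in narrowPeak order. Every deposited q-value was under 0.01. Peak lists give no read counts, so depth and its precision are unknown, and the authors' fold values were used only to describe and rank peaks within a list.

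Distances used RefSeq gene ends of GRCm38.p6, 20665 autosomal protein-coding genes among them. Coverage of 2 kb windows at all 29478 autosomal Control H3K27ac replicate 1 peaks was computed in Python 3.11.15. KO2 was compared with KO1 in limma 3.58.1 (R 4.3.3, trend) on the 4 knockout libraries of a mark, over windows with a mean coverage of at least 5% and values not all equal, with Benjamini-Hochberg adjustment over all windows tested. The script was also run on simulated data. Windows there were independent and the lines had no overall difference in coverage, so that run does not measure how reliable the calls are. Control against knockout was not tested, since Control chose the members. The members and gene lists were chosen with earlier results of these data known.

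Regions named are the 8 members with the highest fold in Control H3K27ac replicate 1; the 8 largest called differences in each direction; the 8 widest met by no knockout peak; the 8 strongest that kept one mark only; those at listed noncoding or microRNA genes or whose nearest gene is in a list; and the 3 on each side of the distance limit, of which 1 is not reported here. Members at promoters shown were chosen after their values were seen. Alternatives were other overlap, q, list size, distance, window, filter and normalization settings, and each replicate left out. Replicate numbers did not pair the libraries.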

Additional observations from a re-analysis of the deposited data

Results flagged for a closer look

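The knockout lines differed in H3K27ac breadth at 3136 members that were broader and 85 that were narrower in KO2 than in KO1 (limma over the 4 knockout libraries, adjusted p under 0.05). Both counts were 0 when either KO2 replicate was left out. Beside them, H3K27ac peaks covered 37.0 and 35.5 Mb of the genome in KO2 against 19.6 and 17.5 Mb in KO1.

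Members named in the text that passed this test had the following KO2 minus KO1 differences, in points of the 2 kb window. The greatest were 88.2 and 87.2 inside Manba, 86.4 inside Btbd11, 84.0 inside Trim71, 83.0 inside Esrrb, 82.1 inside Sulf2, 82.1 near Csnk1a1 and 81.8 inside Il34. At noncoding genes they were 54.5 at Mir1192, 51.0 at Mir7003, 41.8 at Mir135b, 31.6 at Platr7, 28.7 at Chaserr and 26.1 at Mirlet7g. The members at Lin28a, Cops3, Ezr and Phip differed by 72.3, 39.5, 23.7 and 15.6 points. Negative differences were -62.2 inside Arhgef3, -46.1 near 1700016C15Rik, -45.1 inside Ncam2, -42.0 inside Maml2, -41.2 near Gli3, -41.0 near Ndfip2, -40.0 inside Ddx60 and -39.7 inside Bnc2. All 26 missed the threshold without KO1 replicate 2 or without either KO2 replicate, with the sign unchanged. The call was also lost at 20 of 25 with the peak itself as window, at 10 after quantile normalization, at 10 without KO1 replicate 1 and at 9 with equal numbers of peaks per list.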

How the results depend on the processing

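The number of members stayed within 1.5 times 9404 in every setting tried, from 6641 (−log10 q of at least 5) to 13341 (without Control replicate 1). Shares of members met moved with the setting. H3K27ac in KO1 went from 89.9% to 86.0% when at least 50% of the peak had to be covered and 85.6% with equal numbers of peaks per list, and ranged from 79.7% to 92.1% with 1 replicate left out. H3K27ac in KO2 went from 96.3% to 94.9% and 87.3% in those settings, 95.8% with −log10 q of at least 5 and 95.9% away from every gene, with a range of 91.3% to 96.5%. H3K4me3 in KO1 went from 91.9% to 88.8% and 93.2%, and 92.6% without chromosomes 4, 8, 11 and 12, with a range of 84.9% to 92.2%. H3K4me3 in KO2 went from 92.0% to 88.5% at 50% coverage, with a range of 85.8% to 94.1%.

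Counts of members with broader or narrower H3K27ac in KO2 than in KO1 (3136 and 85) were 1709 and 52 with −log10 q of at least 5, and 198 and 19 with the peak itself as window. The count of broader members was 1253 with equal lists and 106 after quantile normalization, and that of narrower ones 158 with a 4 kb window. With 1 knockout replicate left out the members' median difference lay between 13.3 and 19 points. Leaving out a Control replicate changes the members. The counts were then 4667 and 127 without Control replicate 1 (13341 members), and 4457 and 125 without Control replicate 2 (12845 members). With the replicate number as a block they were 3701 and 106, though the numbers did not pair the libraries (correlations of replicate differences from -0.00697 to 0.0180). The block ended 1 of the 26 named calls, that of Phip. H3K4me3 calls went from 0 to 15 broader and 8 narrower with a 4 kb window and 17 and 14 after quantile normalization, and stayed at 0 in the block and with any replicate left out. The Phip member reversed to -4.41 points after quantile normalization, unlike the other 25 named. The same rule in KO2 gave 9526 regions with equal lists, a setting added after seeing the data, against 16529. The cause of these shifts was not tested.

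Depth is unknown, 2 libraries a group cannot reach an exact p under 0.3333, and neighbouring windows share peaks.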
